A study of Drosophila melanogaster with 2 samples.

Results

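The 108 genes described here are the pseudouridylation guide snoRNA genes of the wing disc table. They were chosen by symbol, as every row whose gene name starts with snoRNA:Psi, out of 13989 rows in all. Of these, 46 are named for a position in the 18S rRNA and 62 for a position in the 28S rRNA, and the number after the hyphen is the position of the target uridine. Letters mark several genes that share a target, so the 108 genes fall into 53 symbol families, 19 of which have more than 1 gene. RNA came from the wing imaginal discs, the precursors of the wings, of wandering L3 larvae of Drosophila melanogaster kept at 25 °C. The first genotype, GFP_Tai, made green fluorescent protein (GFP) and Taiman (Tai), which assists the ecdysone receptor in switching on genes, under the engrailed driver (en>GFP,Tai). The other, GFP, expressed GFP alone under the same driver (en>GFP). Larvae of both genotypes carried the driver and were sorted for GFP fluorescence. The driver is active in the posterior compartment, while whole discs were taken, so every value also averages over anterior cells. In such bulk samples, fewer cells of a type and less RNA per cell cannot be told apart. Each genotype is 1 pool of 80 to 100 discs and has 1 FPKM value per gene (fragments scaled to gene length and library size). The design text speaks of triplicates, and whether each value combines several libraries is not given in the labels. Values of single replicates were not analysed here. Differences are therefore given without an error between replicates, and a fragment number may be a sum or an average over libraries.

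Pseudouridylation guides are box H/ACA snoRNAs, small nucleolar RNAs folded into hairpins joined by an H box and closed by an ACA box. A pocket in a hairpin pairs with rRNA on either side of a uridine, and the pseudouridine synthase dyskerin (Nop60B in flies), held in the same particle with Gar1, Nop10 and NHP2, turns that uridine into pseudouridine. Many of these guides lie in introns of other genes, often genes for ribosomal proteins and other parts of the translation machinery, and are released from the intron after splicing. The modified positions cluster in parts of the rRNA that matter for ribosome function.

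The libraries carried their genotype: tai had 879 FPKM in GFP_Tai and 27.1 FPKM in GFP. The 5 wing disc genes examined (nub, vg, ap, en and ci) had 42.9 to 126 FPKM in GFP_Tai and 43.2 to 127.6 FPKM in GFP. Markers of other tissues were low: the fat body genes Lsp1alpha and Fbp1 had 1.31 to 8.41 FPKM in GFP_Tai and 0.605 to 6.01 in GFP, the salivary gland genes Sgs3 and Sgs7 had 1.58 to 6.93 and 0 to 0.275, the blood genes Hml and nimC1 had 1.44 to 3.66 and 0.539 to 0.842, and the muscle genes Act57B and Mhc had 0.482 to 13.5 and 0.440 to 15.2. Of these, the salivary gland genes and nimC1 were at least 2-fold higher in GFP_Tai on the log2(FPKM + 1) scale, and Lsp1alpha was 2.16 times as high in FPKM. Their part in the values of the guides was not tested.

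Most guides had lower values in GFP_Tai than in GFP. Of the 108 genes, 85 reached 1 FPKM in GFP_Tai or GFP, and the other 23 were listed at 0 in both. On the log2(FPKM + 1) scale, 65 of the 85 were at least 2-fold lower in GFP_Tai and 6 at least 2-fold higher. Among all 8275 genes above the same minimum, guides included, 1.81% were lower and 6.31% higher. The 65 guides are among the 150 genes counted as lower there. The median log2 difference of the 85 was -2.67, and that of all genes -0.02. Of the 65 lower guides, 31 were listed at 0 in GFP_Tai, and of the 6 higher ones, 4 were listed at 0 in GFP. A gene listed at 0 in 1 genotype passes the 2-fold threshold by construction. The size of its difference depends on the 1 FPKM added to each value, and so in part does the median of the 85. Leaving out listed zeros, 50 guides remained, of which 34 were at least 2-fold lower and 2 at least 2-fold higher in GFP_Tai. The median log2 difference of these 50 was -1.49. Among all 8089 genes above 0 in both, guides included, 1.19% were lower and 4.82% higher.

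**Figure D1:**
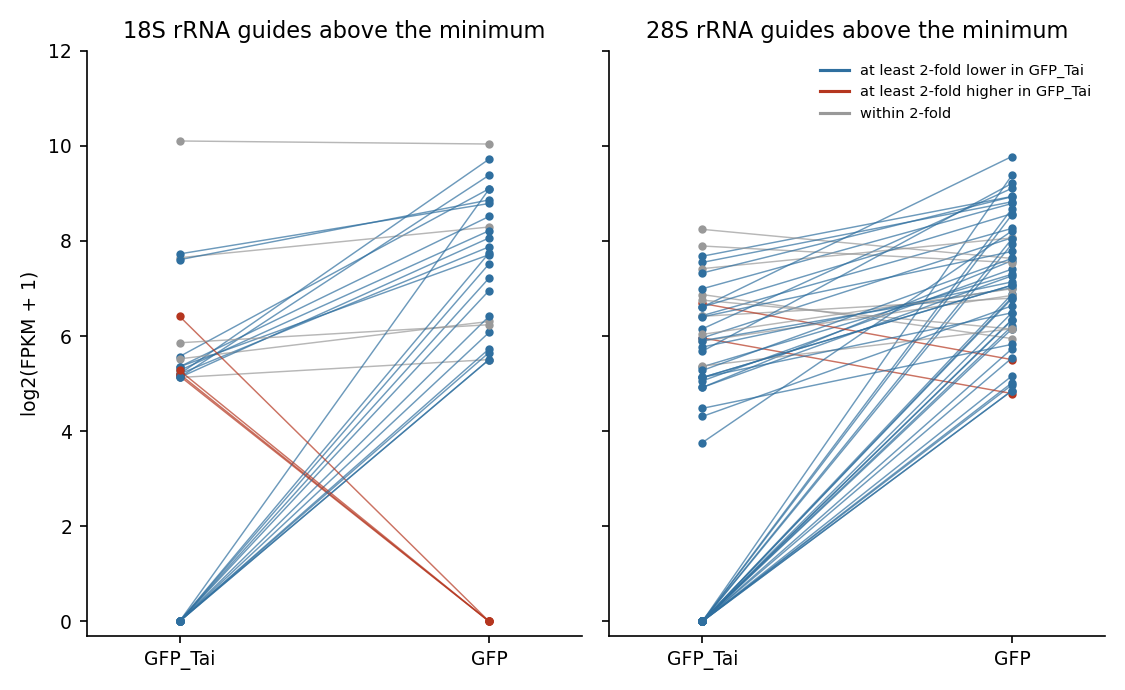
Values of the 85 pseudouridylation guide genes above the minimum, on the log2(FPKM + 1) scale, with GFP_Tai on the left and GFP on the right, for 18S guides and 28S guides; each line is 1 gene. Most lines run from a low value in GFP_Tai to a high value in GFP, 31 of them from a listed 0, while 6 genes have a value at least 2-fold higher in GFP_Tai.

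The guides are very short genes, and each of their FPKM values rests on few fragments. The 105 guides matched to the annotation had a median length of 140 nt (range 124 to 268 nt). Most guides of the same annotated length shared 1 smallest step. At 140 nt, for example, 26 of 28 values above 0 of small RNA genes were, within 0.01, whole multiples of 34.0 FPKM in GFP_Tai or 44.4 FPKM in GFP, which was taken as the worth of 1 fragment. Over 18 of the 19 lengths examined this step fell smoothly with length, and at 142 nt, which was left out, only 2 of 4 values were multiples of the step found. In GFP_Tai it was 57.0 FPKM at 131 nt and 12.5 FPKM at 164 nt, and in GFP 74.5 and 16.4 FPKM at the same lengths. Of 81 guides within the length window examined that had any value above 0, 77 came out as whole numbers of fragments in both genotypes, none of them farther than 0.00225 from a whole number. Psi18S-1854b, Psi28S-2562 and Psi28S-3327a did not follow the step of their annotated length, and Psi28S-612 has no annotated length. For these 4 guides the fragments were taken as the smallest pair of whole numbers that gives the ratio of their values. Any multiple of such a pair gives the same ratio, so these numbers, which enter the sums, are lower bounds. For 4 other guides (Psi18S-640f, Psi28S-2566, Psi28S-2626 and Psi28S-291) no fragment number was found. A GFP_Tai value was 0.765 times the GFP value where both libraries had the same number of fragments, which was taken as a depth of GFP_Tai 1.31 times that of GFP, and ratios are given at equal depth.

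**Figure D2:**
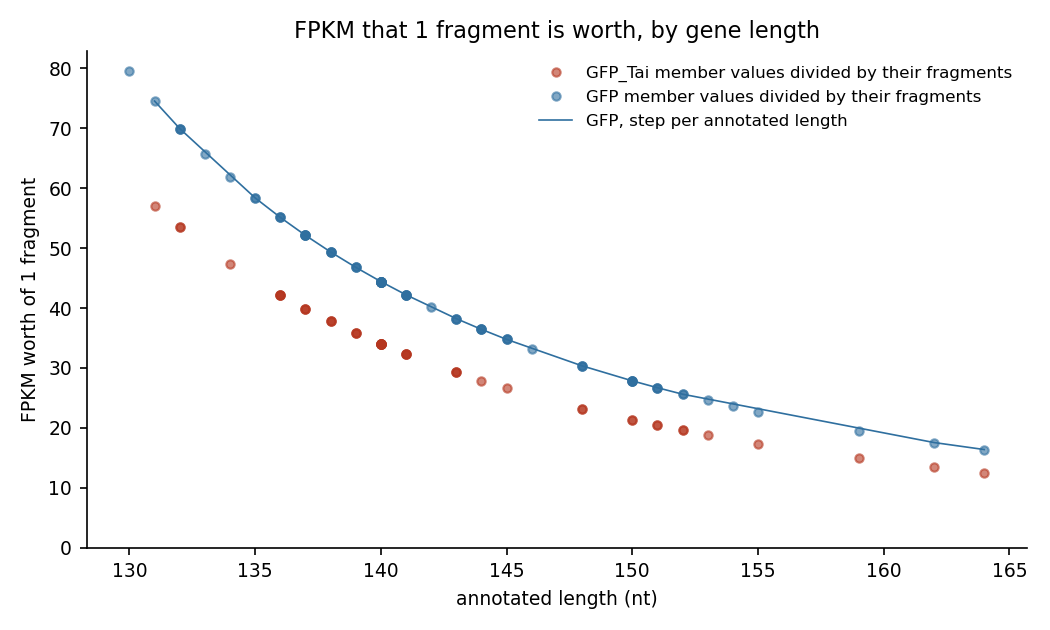
FPKM that 1 fragment is worth against annotated gene length in nt, from the guides whose values came out as whole fragments in GFP_Tai (red) and GFP (blue); the line joins the GFP step of each length from 131 to 164 nt. At 131 nt 1 fragment is worth 57.0 FPKM in GFP_Tai and 74.5 in GFP, and at 164 nt 12.5 and 16.4.

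In fragments, the guides rested on small numbers. Over the 81 guides with fragments the median was 1 fragment in GFP_Tai and 4 in GFP, and the highest was 56 in GFP_Tai and 41 in GFP. In GFP_Tai, 53 of the 81 had 0 or 1 fragment, and in GFP 20 had. Summed over all guides with a fragment number, there were 180 fragments in GFP_Tai and 436 in GFP. At equal depth this is a ratio of 0.316, with an exact 95% binomial interval of 0.264 to 0.377. At equal depth, 70 of the 81 guides had fewer fragments in GFP_Tai and 11 had more. All intervals here cover counting error only, compare the 2 deposited columns and not the genotypes, and do not include variation between animals or preparations.

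The summed ratio held for guides of both rRNAs. Sums of fragments leave out the 4 guides without a fragment number, and the ratio of FPKM summed over all 108 guides was 0.286. The 18S guides had 92 fragments in GFP_Tai and 198 in GFP (ratio 0.356, interval 0.275 to 0.458), and the 28S guides had 88 and 238 (ratio 0.283, interval 0.219 to 0.363). The intervals of the 18S and 28S guides overlap. Psi18S-531 alone held 56 of the GFP_Tai fragments, and without it the 18S guides had 36 fragments in GFP_Tai and 157 in GFP (ratio 0.175, interval 0.119 to 0.253). Without Psi18S-531 the ratio over all guides was 0.240 (interval 0.195 to 0.295). Guides that share a target with another gene had a ratio of 0.331 (interval 0.2500 to 0.435), and guides that are the sole gene for their position had 0.306 (interval 0.241 to 0.385).

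Psi18S-531 was the guide with the highest value in both genotypes and stood near equal values. It lies in an intron of the ribosomal protein gene RpL22 on the X chromosome (X:763083-763234, minus strand, BDGP6). It had 1098 FPKM in GFP_Tai and 1051 FPKM in GFP, from 56 and 41 fragments, a ratio of 1.05 (interval 0.686 to 1.60). Psi28S-2179, the other guide in an RpL22 intron, had 186 FPKM in GFP_Tai and 452 FPKM in GFP, from 7 and 13 fragments (ratio 0.412, interval 0.139 to 1.11). The next highest values in GFP_Tai belonged to guides with few fragments: Psi28S-1192b with 302 FPKM (8 fragments), Psi28S-1192c with 237 (5 fragments), Psi18S-1377d with 211 (5 fragments) and Psi28S-1192a with 204 (6 fragments). In GFP these 4 guides had 197, 186, 441 and 489 FPKM. Neighbours in this order differ by so few fragments that their counting errors overlap.

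After Psi18S-531, the highest values in GFP were those of Psi28S-291, Psi18S-110, Psi28S-2622 and Psi18S-1820, and all 4 were far lower in GFP_Tai. The largest differences among guides above 0 in both genotypes were in Sf3b3, in Nop60B and at a guide without a host. Psi18S-110 (3L:831870-832008, minus strand) had 35.8 FPKM in GFP_Tai and 842 FPKM in GFP, from 1 and 18 fragments, a ratio of 0.0425 (interval 0.00102 to 0.269). Psi18S-1086, in the same host gene Sf3b3, had 46.5 FPKM in GFP_Tai and 547 FPKM in GFP, from 2 and 18 fragments (ratio 0.0850, interval 0.00957 to 0.355). Sf3b3 encodes a subunit of the U2 snRNP splicing complex, and the remaining guide in its introns, Psi28S-3308, had 1 fragment in GFP_Tai and 4 in GFP. Psi28S-3342 (X:5524302-5524465, minus strand) has no annotated host, and it had 12.5 FPKM in GFP_Tai and 295 FPKM in GFP, from 1 and 18 fragments (ratio 0.0425, interval 0.00102 to 0.269). Psi18S-1820 (2R:24176228-24176367, plus strand) lies in an intron of Nop60B, the gene of the pseudouridine synthase that the guides work with. It had 34.0 FPKM in GFP_Tai and 666 FPKM in GFP, from 1 and 15 fragments (ratio 0.0510, interval 0.00121 to 0.332). The intervals of Psi18S-110, Psi18S-1086, Psi28S-3342 and Psi18S-1820 lie below equal values. The authors' own test gave these guides unadjusted p-values of 0.331, 0.321, 0.459 and 0.335 and called none of them. These guides were picked for their large differences, which the intervals do not allow for.

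Other guides had differences of similar size on fewer fragments. Psi28S-2562, in an RpS20 intron, had 50.3 FPKM in GFP_Tai and 592 FPKM in GFP, from 1 and 9 fragments (ratio 0.0850, interval 0.00194 to 0.614). Psi18S-1377e, in an RpS7 intron, had 39.9 FPKM in GFP_Tai and 365 FPKM in GFP, from 1 and 7 fragments (ratio 0.109, interval 0.00243 to 0.851). Psi18S-301 has no annotated host and Psi18S-1854c lies in an RpS5a intron, and each had 1 fragment in GFP_Tai and 6 in GFP, with an interval of 0.00277 to 1.05 that includes equal values. Psi28S-291, in an RpL3 intron, had 96.6 FPKM in GFP_Tai and 876 FPKM in GFP, and Psi28S-2626, in an RpS7 intron, had 70.1 and 550. These last 2 have no fragment number, so their counting error is not given.

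Among guides listed at 0 in GFP_Tai, those with most fragments in GFP were both without an annotated host on their own strand. Psi18S-176 (2R:23839911-23840064, minus strand) was listed at 0 in GFP_Tai and had 544 FPKM in GFP from 23 fragments (interval of the ratio 0 to 0.133). Psi28S-2622 (3L:1488906-1489045, plus strand) was listed at 0 in GFP_Tai and had 666 FPKM in GFP from 15 fragments (interval 0 to 0.213). Psi28S-2622 lies on the strand opposite to the protease gene stet, and without strand information reads of the 2 cannot be told apart, but stet had 0.0561 FPKM in GFP_Tai and 0.146 FPKM in GFP. Psi28S-1837c and Psi18S-996 were listed at 0 in GFP_Tai and each had 8 fragments in GFP (interval 0 to 0.448). Psi28S-3091a and Psi28S-1180 were listed at 0 in GFP_Tai and each had 7 fragments in GFP (interval 0 to 0.531). All these guides were picked for their fragments in GFP, which the intervals do not allow for. A value of exactly 0 can also be a failed estimate in a table of this kind.

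The 6 guides at least 2-fold higher in GFP_Tai rested on at most 3 fragments in GFP_Tai. Psi28S-1135e had 61.3 FPKM in GFP_Tai and 26.7 FPKM in GFP, and Psi28S-2442a had 102 and 44.4, each from 3 and 1 fragments (ratio 2.30, interval 0.184 to 121). Psi18S-525i had 84.4 FPKM and Psi18S-1389b had 34.8 FPKM in GFP_Tai, from 2 fragments each, and both were listed at 0 in GFP. Psi18S-1854a had 35.8 FPKM and Psi18S-841b had 37.8 FPKM in GFP_Tai, from 1 fragment each, and both were listed at 0 in GFP. All 6 intervals include equal values. Psi28S-1153, which has no annotated host, was just under the threshold, with 116 FPKM in GFP_Tai and 60.7 FPKM in GFP from 5 and 2 fragments (ratio 1.91, interval 0.313 to 20.1).

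Genes of 1 symbol family share a target position and often an intron cluster, and they were read together for the 14 families of 3 or more genes. Near-identical copies can share or lose reads, depending on the counting, so single members are uncertain. Of these families, the one with most fragments in GFP was Psi18S-1377, with 5 genes in introns of RpS7, which had 12 fragments in GFP_Tai and 29 in GFP (ratio 0.317, interval 0.147 to 0.640). Within it, Psi18S-1377c and Psi18S-1377d had 199 and 211 FPKM in GFP_Tai and 313 and 441 FPKM in GFP. Psi18S-1377a had 35.8 FPKM in GFP_Tai and 234 FPKM in GFP, and Psi18S-1377b was listed at 0 in GFP_Tai with 148 FPKM in GFP. The 5 genes thus had 0 to 5 fragments each in GFP_Tai and 3 to 8 in GFP, with Psi18S-1377e described above.

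The introns of RpS5a on the X chromosome hold 14 guides from several families. Psi28S-1135, with 6 genes there, had 7 fragments in GFP_Tai and 20 in GFP (ratio 0.268, interval 0.0957 to 0.659). Psi28S-1192, with 4 genes, had 19 fragments in GFP_Tai and 20 in GFP (ratio 0.727, interval 0.367 to 1.44), and the values of its genes were 204, 302 and 237 FPKM and a listed 0 in GFP_Tai, against 489, 197, 186 and 117 FPKM in GFP (Psi28S-1192a to Psi28S-1192d). Psi18S-1854, with 3 genes, had 3 fragments in GFP_Tai and 10 in GFP (ratio 0.230, interval 0.0406 to 0.892). Families in the same host gene thus had summed ratios of 0.230 to 0.727, and the intervals of these 3 families overlap.

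Other families were in fewer fragments. Psi28S-1175, in RpS16, had 6 fragments in GFP_Tai and 14 in GFP (ratio 0.328, interval 0.103 to 0.909), and Psi28S-3327, in RpS4, had 3 and 10 (ratio 0.230). Psi28S-1837, in CG10576, had 1 fragment in GFP_Tai and 12 in GFP (ratio 0.0638, interval 0.00149 to 0.431). Intervals that include equal values were found for Psi28S-3316 in dom (5 fragments in GFP_Tai and 7 in GFP), Psi28S-3305 in Hrb98DE (3 and 7), Psi18S-841 in dom (1 and 6), Psi28S-3405 in Hrb98DE (0 and 2) and Psi18S-1347 in pAbp (0 and 2). The dom gene encodes the Domino chromatin remodeler, Hrb98DE an hnRNP protein and pAbp the poly(A)-binding protein.

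The largest families by gene number were almost unmeasured. Psi18S-525 has 11 genes and Psi18S-640 has 7, and all but Psi18S-525k lie in introns of Arpc2, the gene of an Arp2/3 complex subunit, between 20418348 and 20422063 on 2L (BDGP6). Of these 18 genes, 13 were listed at 0 in both genotypes, and they make up most of the 23 guides listed at 0 in both. Psi18S-525 had 2 fragments in GFP_Tai and 1 in GFP, and Psi18S-640 had 1 and 2, besides Psi18S-640f, which was listed at 0 in GFP_Tai with 123 FPKM in GFP. The guides listed at 0 in both had a median length of 135 nt (range 124 to 143 nt), and the others had 140 nt (range 126 to 268 nt). No direction can be read for these families at this depth.

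Host genes did not show the difference that their guides showed. Of the 105 annotated guides, 100 lay within introns of 25 host genes on the same strand, with none overlapping a host exon. The 25 hosts all differed by less than 2-fold, which is near the background of 1.81% lower and 6.31% higher among all genes above the minimum. Their median log2 difference was -0.10 (range -0.48 to 0.17), and 23 of the 25 lay below 0, against 53.8% of all genes. The 12 ribosomal protein hosts had a median of -0.10, and 11 of the 12 lay below 0. RpS5a had 3765 FPKM in GFP_Tai and 3958 FPKM in GFP, while its 14 guides had 34 and 56 fragments (ratio 0.465, interval 0.294 to 0.724). RpS7 had 4052 FPKM in GFP_Tai and 4404 FPKM in GFP, while 6 of its 7 guides had 12 and 31 fragments (ratio 0.296, interval 0.139 to 0.593), Psi28S-2626 having no fragment number.

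The same held for hosts outside the ribosome. Sf3b3, which the table lists as CG13900, had 202 FPKM in GFP_Tai and 251 FPKM in GFP, while its 3 guides had 4 and 40 fragments (ratio 0.0765, interval 0.0199 to 0.212). The translation factor gene kra, listed as exba, had 616 FPKM in GFP_Tai and 618 FPKM in GFP, while its 8 guides had 10 and 28 fragments (ratio 0.273, interval 0.118 to 0.580). CG10576 had 490 FPKM in GFP_Tai and 559 FPKM in GFP, while its 4 guides had 1 and 14 fragments (ratio 0.0547, interval 0.00129 to 0.359). The dom gene had 94.5 FPKM in GFP_Tai and 101 FPKM in GFP, while its 12 guides had 11 and 21 fragments (ratio 0.401, interval 0.175 to 0.870). RpL17 had 1830 FPKM in GFP_Tai and 2016 FPKM in GFP, while its 4 guides had 8 and 24 fragments (ratio 0.255, interval 0.0991 to 0.587). Hosts of the remaining families were within 2-fold: RpS16 had 3411 FPKM in GFP_Tai and 3650 in GFP, RpS4 had 2740 and 2893, Hrb98DE had 375 and 387, pAbp had 982 and 898, Arpc2 (listed as Arc-p34) had 86.0 and 95.9, and Msp300, with the largest difference of the 25 hosts, had 8.68 and 12.5. The noncoding host Uhg4 had 120 FPKM in GFP_Tai and 130 FPKM in GFP, and its guide Psi28S-2949 was listed at 0 in GFP_Tai and had 2 fragments in GFP.

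**Figure D3:**
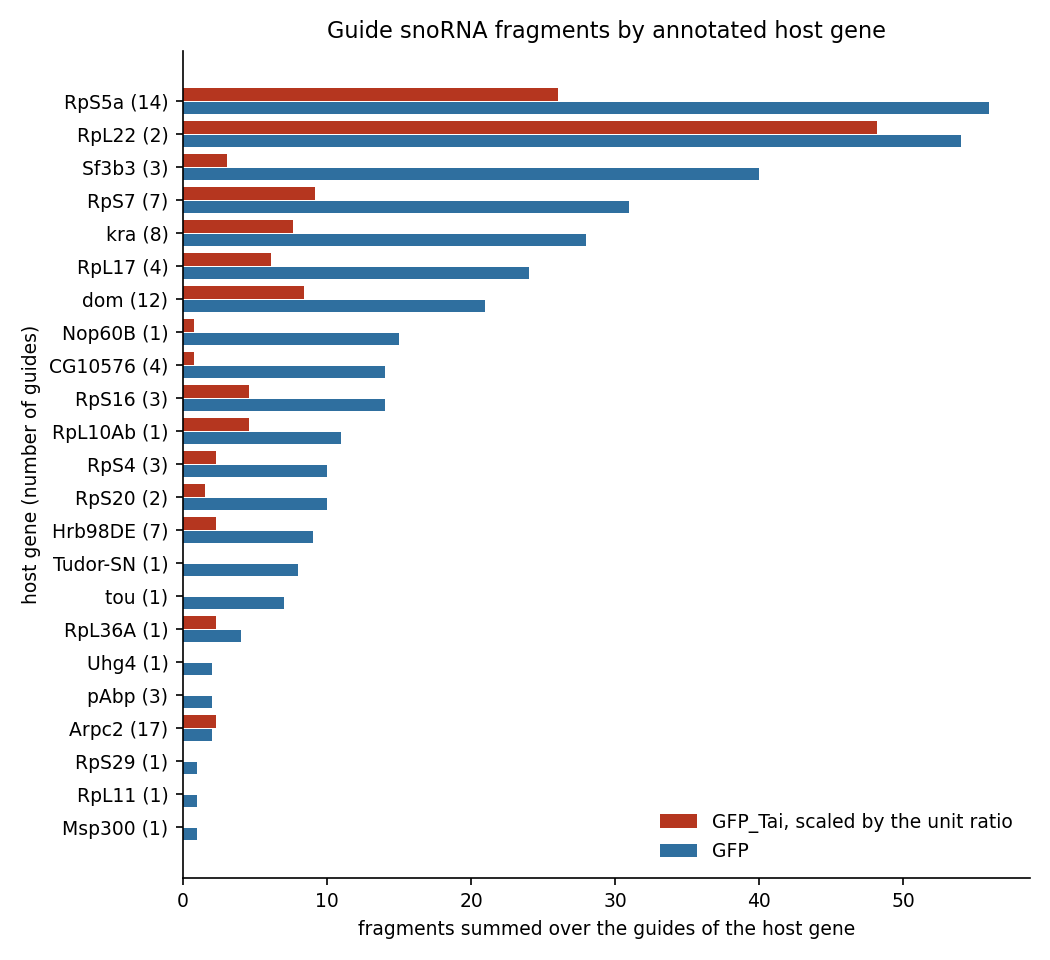
Fragments summed over the guides of each annotated host gene, with GFP_Tai (red, scaled to the depth of GFP) above GFP (blue), and the number of guides per host in parentheses. RpL3 and CG3902 are left out because their only guides, though above 0 in GFP, have no fragment number. The GFP bar is longer in every host drawn but Arpc2, where 16 of 17 guides had 3 fragments in GFP_Tai and 2 in GFP, leaving out Psi18S-640f, while the FPKM summed over all 17 was 141 in GFP_Tai and 249.8 in GFP; RpL22, with 63 and 54 fragments, comes closest to equal bars after scaling among hosts with more than 10 fragments.

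Guides in ribosomal protein hosts and in other hosts were both lower in GFP_Tai, by different amounts. In ribosomal protein hosts, 38 of 40 guides had a fragment number, with 137 fragments in GFP_Tai and 216 in GFP (ratio 0.485, interval 0.389 to 0.604), and without Psi18S-531 the ratio was 0.354 (interval 0.269 to 0.464). Psi28S-291 and Psi28S-2626 are left out of these counts, and the ratio of FPKM summed over all 40 was 0.392. In other hosts, 58 of 60 guides had a fragment number, with 33 fragments in GFP_Tai and 149 in GFP (ratio 0.170, interval 0.113 to 0.248), and the ratio of FPKM summed over all 60 was 0.166. The 5 guides without an annotated host had 7 and 64 (ratio 0.0837, interval 0.0324 to 0.183). The intervals of guides in ribosomal protein hosts and in other hosts do not overlap, but with 1 library per genotype this difference has no replicate check. Single hosts among the others varied. Sf3b3 (4 fragments in GFP_Tai and 40 in GFP), Nop60B (1 and 15) and CG10576 (1 and 14) had ratios of 0.0765, 0.0510 and 0.0547. In dom and kra the ratios were 0.401 and 0.273. How far the difference between host classes rests on single hosts was not tested.

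Genes whose products act with the guides were within 2-fold. None of the 20 genes above the minimum in the list of snoRNP proteins, pseudouridine synthases and assembly factors was at least 2-fold different, 16 of the 20 lay below 0, and their median log2 difference was -0.31. Over the whole table, of genes reaching 1 FPKM, 1.81% passed the threshold downward, 6.31% passed it upward and 53.8% lay below 0, so a count of 0 among 20 genes is near the background. The H/ACA core gene Nop60B had 245 FPKM in GFP_Tai and 324 FPKM in GFP. The other core genes were Gar1 (listed as CG4038) with 80.1 FPKM in GFP_Tai and 116 in GFP, Nop10 (CG7637) with 401 and 463, and NHP2 with 168 and 214. The H/ACA assembly factor gene CG10341 (NAF1) had 37.8 FPKM in GFP_Tai and 43.5 in GFP, and CG10055 (SHQ1) had 12.4 and 13.4. All 6 had a log2 difference between -0.53 and -0.10.

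Pseudouridine synthases that work without a guide RNA lay on either side of 0. Pus7 (CG6745) had 12.0 FPKM in GFP_Tai and 18.1 in GFP, Pus1 (CG4159) had 19.5 and 24.5, and RluA-2 had 14.2 and 11.1. CG3045 had 20.03 FPKM in GFP_Tai and 22.1 in GFP, CG34140 had 30.2 and 28.2, Pus10 (CG3709) had 12.1 and 11.7, CG7849 had 10.6 and 10.6, and RluA-1 was under the minimum with 0.0988 and 0.0430. Their median log2 difference was 0.00. The proteins of box C/D particles, which guide methylation, had a median of -0.38: Fib, the methyltransferase, had 162 FPKM in GFP_Tai and 213 in GFP, nop5 had 189 and 244, Nop56 had 182 and 213, and hoip had 249 and 355. The assembly factor genes pont, rept and Nopp140 had 79.4, 75.8 and 98.5 FPKM in GFP_Tai and 109, 94.3 and 121 in GFP.

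Other small RNA genes of like length also had lower values in GFP_Tai in sum, and 2 orphan H/ACA snoRNAs held most of their GFP fragments. The 13 of them above the minimum had a median log2 difference of -1.93, against -2.67 for the 85 guides above it. Of 19 other small RNA genes in the length window of the guides, 18 had a fragment number, and together they had 47 fragments in GFP_Tai and 163 in GFP (ratio 0.221, interval 0.156 to 0.307). Of these, Or-aca4 had 26.9 FPKM in GFP_Tai and 1317 FPKM in GFP, from 2 and 75 fragments, and Or-aca5 had 23.2 and 1306, from 1 and 43. The interval of all 18 overlaps that of the guides (0.264 to 0.377). Without Or-aca4 and Or-aca5, which held 118 of the 163 fragments in GFP, the other 16 genes had 44 fragments in GFP_Tai and 45 in GFP. Their ratio was 0.748, with an interval of 0.482 to 1.16 that includes equal values. Or-aca4 and Or-aca5 were left out after their values were seen, so no difference from the guides is read from this ratio. Among these 16 genes, the 2 genes with snmRNA symbols had 17 and 8 fragments in GFP_Tai, against 14 and 3 in GFP. Methylation guides are shorter, with a median length of 79 nt, and 97 of 99 were listed at 0 in both genotypes, so they could not be compared as a set. The 2 above the minimum were both at least 2-fold lower in GFP_Tai (log2 differences -8.58 and -1.06), 1 of them listed at 0 there. Of the 7 other snoRNA genes above the minimum, Or-aca4 and Or-aca5 among them, 4 were at least 2-fold lower and 0 higher. The share of lower genes in the whole table was 1.81%.

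Gene length moved with the share of lower genes. Among protein-coding genes above the minimum, 40% of the 5 genes of up to 268 nt were at least 2-fold lower in GFP_Tai, 4.86% of the 144 genes over 268 and up to 500 nt, 2.37% of the 1097 genes over 500 and up to 1000 nt, 0.796% of the 2637 genes over 1000 and up to 2000 nt, and 0.196% of the 4083 longer ones. The shares at least 2-fold higher in GFP_Tai were 20%, 20.8%, 10.03%, 5.76% and 5.05% in the same order. The part of gene length in the difference of the guides was not tested, since only 5 protein-coding genes above the minimum are as short as the guides.

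**Figure D4:**
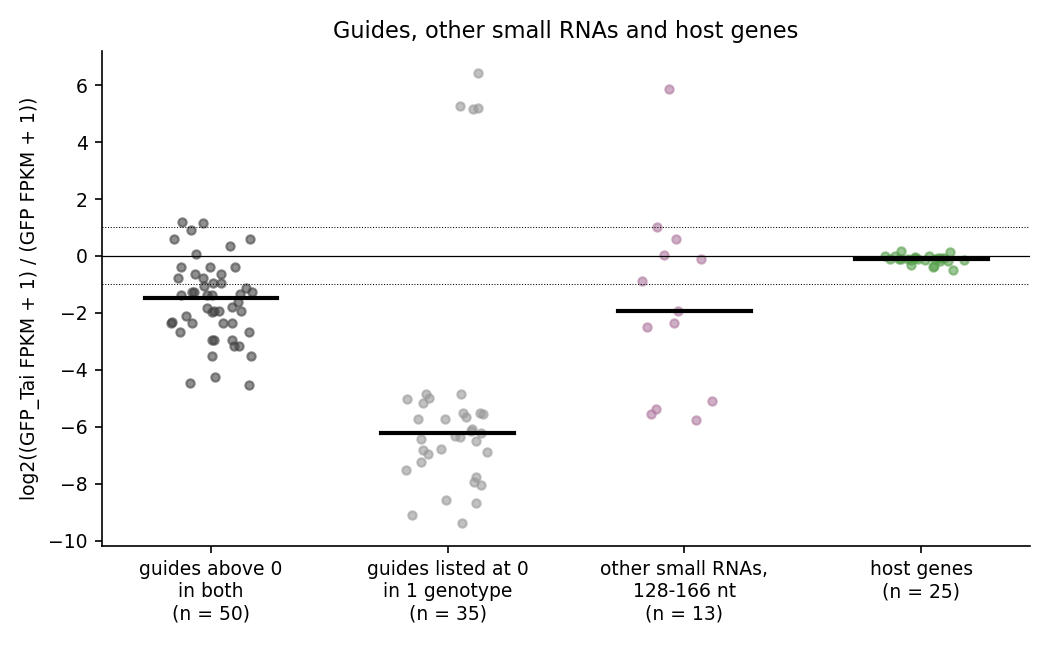
Log2 difference of GFP_Tai against GFP, as log2((GFP_Tai FPKM + 1) / (GFP FPKM + 1)), for 50 guides above 0 in both genotypes, 35 guides listed at 0 in 1 genotype, 13 other small RNA genes of like length and the 25 host genes; points are genes, bars are medians and dotted lines mark a 2-fold difference. The medians are -1.49, -6.21, -1.93 and -0.10, and all host genes lie within the dotted lines. For guides listed at 0 in 1 genotype, the size of the difference depends on the 1 FPKM added to each value.

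In the authors' deposited table, 85 of the guides were tested and 0 were called, against 11 calls among 8374 tested genes. In the authors' test, the lowest unadjusted p of a guide was 0.0406, for Psi18S-996, which was listed at 0 in GFP_Tai. Only 4 guides had an unadjusted p under 0.05 in that test. Psi18S-176 and Psi28S-2622, whose counting intervals lie below equal values, had 0.120 and 0.225 in it. Every guide had a q-value of at least 0.9995.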

How the data were processed

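RNA sequencing of wing discs was deposited as 1 table with 1 FPKM value per gene and genotype, scaled by the authors (in Cuffdiff's column layout). The deposit also calls these values RPKM, so a fragment here may be a single read. Per the labels' protocols, 4 µg of total RNA per pool was depleted of rRNA and made into a library with the TruSeq version 2 kit. Tools listed in the submitters' processing notes are TopHat2 2.0.12, Cuffdiff 2.2.1 and CASAVA 1.4, with the build dm6. The sources used here do not give annotation, strand or filters. The authors' p-value and q-value columns are named in the file headers. The table's loci were not used, since only 1901 of 13529 started within 100 bp of the BDGP6 annotation (Ensembl release 115); coordinates, lengths and hosts (a gene on the same strand containing the guide) came from that annotation by symbol or synonym, for 105 of 108 guides.

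Differences are log2((GFP_Tai FPKM + 1) / (GFP FPKM + 1)), which understates those of low genes, with a minimum of 1 FPKM in either genotype and a 2-fold threshold. With 1 value per genotype no test was made. Depth was read from low values: 304 genes shared the ratio 0.7653, taken as equal fragments. The FPKM worth of 1 fragment was found per length, where at least 3 values existed, and smoothed over 18 of 19 lengths (142 nt, off the curve, was left out) with a polynomial of degree 4 (largest residual 0.018%). Values within 0.02 of whole were accepted; 10 of 11 guides of lengths outside the curve also came out whole. Otherwise the smallest pair of whole numbers up to 20 within 0.05% of the ratio was used. Intervals are exact (Clopper-Pearson). The steps were also run on simulated data made of whole fragments on a smooth length curve. That run cannot show that the deposited values are whole fragments. Named genes were the guides with the highest values and largest differences, those at least 2-fold higher, families of 3 or more, hosts and the gene list. Members and lists were chosen with earlier results of these data known. Tgs1 matched no row, and mfl is an older symbol of Nop60B. Computations used Python 3.11.15, pandas 2.3.3, numpy 2.4.6 and scipy 1.17.1.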

Additional observations from a re-analysis of the deposited data

How the results depend on the processing

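There were 11 planned settings, 8 results and 4 settings chosen after seeing the data (those on summed fragments). Of 64 alternative values, 52 stayed within their limits and 12 moved, none changing direction. Limits were a fixed factor for counts, counting intervals for fragment ratios, and intervals over guides, which are not replicates, for medians and the share. A minimum of 5 FPKM and the guides the authors tested gave the same 85 guides, so these settings could not move any value. Leaving out the minimum could not change the counts of lower and higher guides. The number that stayed is therefore no measure of robustness. Without guides listed at 0 in either genotype, 34 guides of 50 were at least 2-fold lower and 2 higher, and the median log2 difference was -1.49, and -1.38 for 28S guides. With 1 value per symbol family, 41 of 50 were lower and 1 higher. Without a minimum the medians were -1.81 for all guides and -0.51 for 18S guides, and 60.2% were lower, since guides at 0 in both enter. At a 4-fold threshold 57.6% were lower, against 76.5% at 2-fold. Without Psi18S-531 the summed fragment ratio was 0.240, against 0.316 with it, and without Or-aca4 and Or-aca5 that of other small RNAs was 0.748, against 0.221. The fragments per guide (median total 5) limit what single guides can show. No paired analysis was possible because there is 1 value per genotype, and for the same reason no replicate could be left out.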
